A study of Mus musculus with 90 samples.

Results

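AP-1 is a dimer of basic leucine zipper proteins of the Fos, Jun and related ATF families, and the transcripts of 9 of these factors are described here: Fos, Fosb, Fosl1, Fosl2, Jun, Junb, Jund, Atf3 and Batf. They were taken by gene symbol from the rows of the array, and the family was chosen with earlier results of these data known. An array row was named for 8 of the 9 (Fosb had none), and 7 of these had enough values to enter every comparison, among 9760 genes and 11600 features tested in all. Junb had too few values and is described by itself.

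RAW 264.7, a macrophage-like line of the mouse, was treated for 1, 2 or 4 h, and RNA of each treatment was hybridized with RNA of untreated cells of the same time on custom Agilent arrays with 2 colours. The treatments were lipopolysaccharide (LPS, a bacterial ligand of Toll-like receptor 4) at 100 ng/ml, interferon gamma (IFG) at 5 nM, 2-methyl-thio-ATP (2MA, an ATP analogue that acts on purine receptors) at 500 µM, LPS+IFG and LPS+2MA. The labels list lipid binding protein at 100 pM with LPS alone and not with the combinations. Each of the 15 conditions had 3 numbered sets, and each set had 2 arrays with the dyes exchanged, which made 90 arrays and 45 replicates. Untreated cells in medium were the other channel of every array, so no group stands without a treatment. Whether each set came from its own culture, and whether one untreated RNA served several treatments, cannot be read from the labels. Each p-value therefore covers the spread among these sets, which may be technical. RAW 264.7 is a single virus-transformed line.

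Values are log2 ratios of treated over untreated RNA, given as the mean ± SD of 3 sets unless another n is stated. The labels do not state which channel was divided by which, and each direction given here is the likely one, taken from genes known to respond to LPS or IFG. A feature was called higher or lower where the moderated test of limma, fitted to all features, reached an adjusted p (Benjamini and Hochberg) under 0.05 together with at least a 2-fold change, which is 1 on the log2 scale. Ratios give no level of a transcript, so macrophage markers could be checked for movement with a treatment only. Of 5 macrophage markers measured, Fcgr1 (an Fc receptor) was called higher and Csf1r (the receptor of the macrophage growth factor) lower in some conditions, and none of the 17 measured markers of T cells, B cells, fibroblasts or epithelial cells was called in any of the 15 conditions (limma). At an unadjusted p under 0.05 there were 18 of 255 such ratios, 16 of them above 0. Counts at an unadjusted p, here and below, have no share of all features beside them and describe the named ratios only. In bulk RNA a change per cell and a change in the share of cells cannot be told apart. Correlation between the exchanged arrays of a set ran from -0.40 to 0.78 over all probes and was lowest in set 2 in 14 of the 15 conditions.

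Fos proteins cannot pair with each other and bind DNA as dimers with Jun proteins, while Jun proteins also form dimers among themselves. Some of their genes, among them Fos and Jun, are immediate early genes, which mitogen-activated protein kinases switch on through factors already present in the cell. Atf3 is a stress-induced relative known as a brake on inflammatory genes in macrophages. Batf lacks a transactivation domain and acts with Jun and interferon regulatory factors.

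The starts of 3 genes with different time courses are shown because their short upstream sequences hold letters of the kind that AP-1, CREB or ATF proteins can bind, an AP-1 element in Jun and the partial CREB/ATF site TGACG in Fos and Atf3. The sequences run 5′ to 3′ from base -250 to base -1 before the annotated start, on the strand of the gene, and come from RefSeq on mouse build GRCm38.p6. Capitals mark the letters of every motif searched. Those of Fos lie at chr12:85473640-85473889 (plus strand), those of Jun at chr4:95052223-95052472 (minus strand) and those of Atf3 at chr1:191183334-191183583 (minus strand), all in the flank upstream of the gene.
Fos: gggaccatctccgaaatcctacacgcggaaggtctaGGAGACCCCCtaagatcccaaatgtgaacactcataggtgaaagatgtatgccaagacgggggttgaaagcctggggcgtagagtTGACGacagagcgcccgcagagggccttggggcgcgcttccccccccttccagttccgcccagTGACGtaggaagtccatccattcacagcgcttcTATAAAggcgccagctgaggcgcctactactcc
Jun: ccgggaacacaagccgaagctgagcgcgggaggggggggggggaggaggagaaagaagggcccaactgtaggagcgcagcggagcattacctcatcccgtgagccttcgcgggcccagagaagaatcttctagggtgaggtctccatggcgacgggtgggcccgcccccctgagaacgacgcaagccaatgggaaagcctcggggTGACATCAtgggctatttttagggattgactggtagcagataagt
Atf3: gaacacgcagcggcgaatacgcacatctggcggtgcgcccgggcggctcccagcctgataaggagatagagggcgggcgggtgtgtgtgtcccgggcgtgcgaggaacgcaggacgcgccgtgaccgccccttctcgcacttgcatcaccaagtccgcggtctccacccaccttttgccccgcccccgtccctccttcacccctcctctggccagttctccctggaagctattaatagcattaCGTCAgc

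The motifs were searched on both strands of this window in the 8 members with an entry. The letters TGACATCA, the AP-1 element by which Jun is known to act on its own gene, were found in the window of Jun at bases -45 to -38 and in no other member, against 2.93% of 32851 promoter windows. TGACG was found in 5 of 8 members (Fos, Fosb, Junb, Atf3 and Batf) and 17.8% of all windows. It lay at -129 to -125 and -66 to -62 in Fos and on the opposite strand at -7 to -3 in Atf3. The TATA motif TATAAA was found in the window of Fos (-33 to -28) and 12.4% of all windows. TGANTCA (6.75% of all windows), TGACGTCA, which contains TGACG (1.55%), the interferon motif TTCNNNGAA (7.02%) and the CArG box of serum response factor (1.47%) were in none of the 8 windows. The NF-kB motif was in 3 of them (Fos, Fosb and Fosl2) and in 3.90% of all. None of the motifs searched was in the window of Jund. A link between motifs and the ratios below was not tested. A match, or the lack of one, describes letters in this window only, and bases farther upstream were not searched.

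Over the 7 tested members and 15 conditions there were 105 ratios, of which 33 were called higher and 1 lower. The conditions with LPS held 31 of the higher calls among 63 ratios, and those without LPS held 2 among 42. The share of all features called in each condition is given below, with the counts of members without the 2-fold minimum. Atf3 and Fosl1 were each called higher in 10 conditions, Jund in 7, Fosl2 in 5 and Jun in 1, while Fos and Batf were called in none (limma). At an unadjusted p under 0.05 Fos had 5 ratios above and 3 below 0, and Batf had 0. Jun was also the member called lower, in 1 condition. The members thus covered the range from a ratio called in every condition with LPS to none, as the plot of ratios by condition shows.

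**Figure D1:**
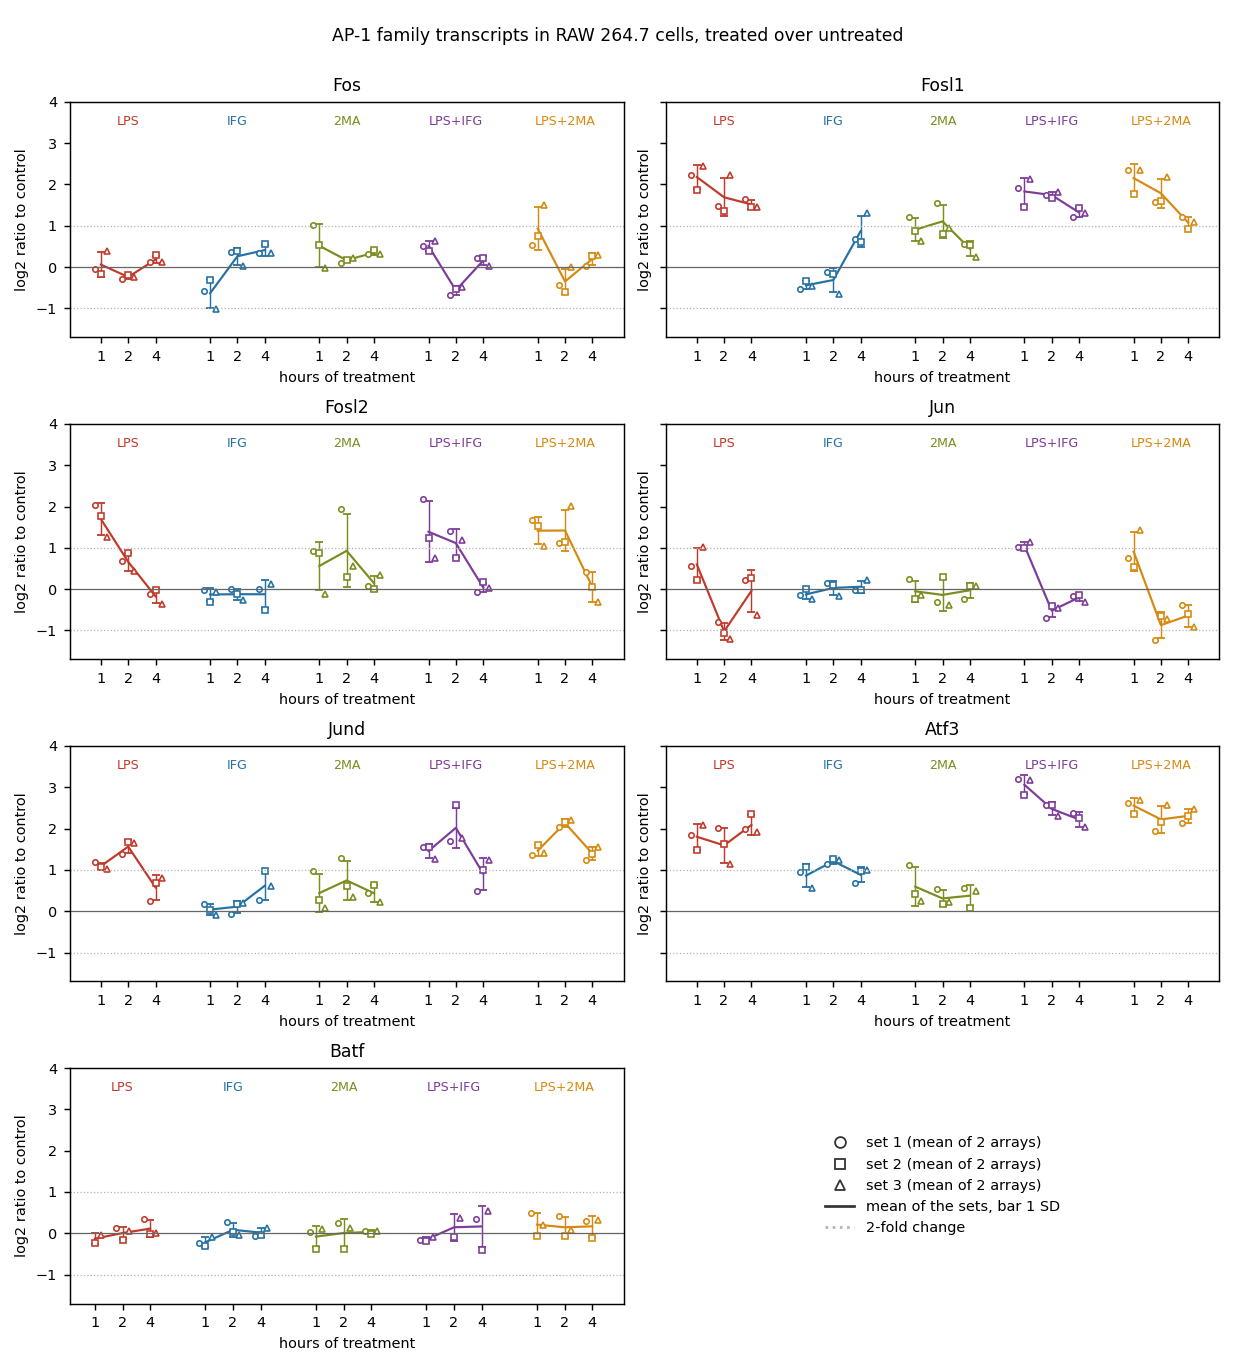
Log2 ratio of treated over untreated RNA (vertical) against hours of treatment (horizontal) for the 7 tested members, in blocks of LPS, IFG, 2MA, LPS+IFG and LPS+2MA. Open symbols are the 3 sets, lines join the means, bars are 1 SD and dotted lines mark a 2-fold change. Atf3 lay highest after 1 h of LPS+IFG (3.06), Fosl2 returned to near 0 by 4 h, and Jun was above 0 at 1 h and below 0 at 2 h in the blocks with LPS.

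Among all features, the share called higher was 1.03%, 1.84% and 3.64% after 1, 2 and 4 h of LPS, and 4, 3 and 2 of the 7 members were. It was 0.353%, 1.06% and 1.69% after IFG, with 0, 1 and 0 members, and 0.259%, 0.319% and 0.112% after 2MA, with 0, 1 and 0 members. After LPS+IFG it was 1.69%, 3% and 4.58%, with 5, 4 and 2 members, and after LPS+2MA 1.15%, 2.22% and 4.69%, with 4, 4 and 3 members. Calls over all features thus became more frequent from 1 to 4 h of LPS while fewer members were called. By the adjusted p of limma alone, without the 2-fold minimum, 5, 4 and 3 members were higher at 1, 2 and 4 h of LPS. It was 6, 4 and 3 with either combination, 1, 1 and 3 with IFG and 2, 3 and 0 with 2MA. No share of all features is given at that setting. The median ratio of the members at 1 h was 1.09 with LPS, 1.39 with LPS+IFG and 1.42 with LPS+2MA, against medians of all features of -0.01 in each. It was -0.13 at 1 h of IFG and 0.51 at 1 h of 2MA. At 4 h of LPS, LPS+IFG and LPS+2MA it was 0.18, 0.17 and 0.20.

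Fos is the founding member of the family, and its protein is the usual partner of Jun early after a stimulus. As given above, none of its 15 ratios was called, and no time before 1 h was sampled. At 1 h of LPS its ratio was -0.06, -0.16 and 0.40 in the 3 sets, which lay on both sides of 0. With LPS+2MA at 1 h it was 0.53, 0.75 and 1.51, a mean of 0.93 ± 0.51 (adjusted p = 1.02e-05 by limma) that fell short of 2-fold and was the highest of Fos. Without set 1 this mean was 1.13 and without set 2 it was 1.02, and both would have been called.

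Fos after 1 h of IFG was -0.58, -0.31 and -1.01, a mean of -0.63 ± 0.35 (adjusted p = 0.00964 by limma). All 6 arrays were below 0, the change was short of 2-fold, and the mean was number 10 from the lowest of the 11600 features. The sets of 2MA at 1 h spread from -0.02 to 1.02, with a mean of 0.51 ± 0.52 (adjusted p = 0.062). At 2 h Fos was below 0 on all 6 arrays of LPS and of LPS+IFG. The 3 sets of LPS+IFG were -0.68, -0.52 and -0.49 (mean -0.56 ± 0.10, adjusted p = 0.00292), again short of 2-fold, and those of LPS were -0.29, -0.19 and -0.24 (adjusted p = 0.315). By 4 h every condition had a mean above 0, from 0.16 with LPS+IFG to 0.41 with IFG.

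Fos was represented by 2 array rows, listed under the accessions NM_010234 and V00727. Their means had the same sign in all 15 conditions and correlated over conditions with r = 0.957, as a description, but V00727 was farther from 0 in each of the 15. With LPS+2MA at 1 h the row V00727 gave 1.31 ± 0.68 and would have been called by itself, while NM_010234 gave 0.55 ± 0.36. IFG at 1 h gave on them, in that order, -0.93 ± 0.53 and -0.34 ± 0.19. The size of every Fos ratio given here, a mean of both rows, therefore depends on which row is read. The direction of the condition means does not, but that of single sets can: set 1 at 2 h of LPS was 0.02 on NM_010234 and -0.60 on V00727.

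**Figure D2:**
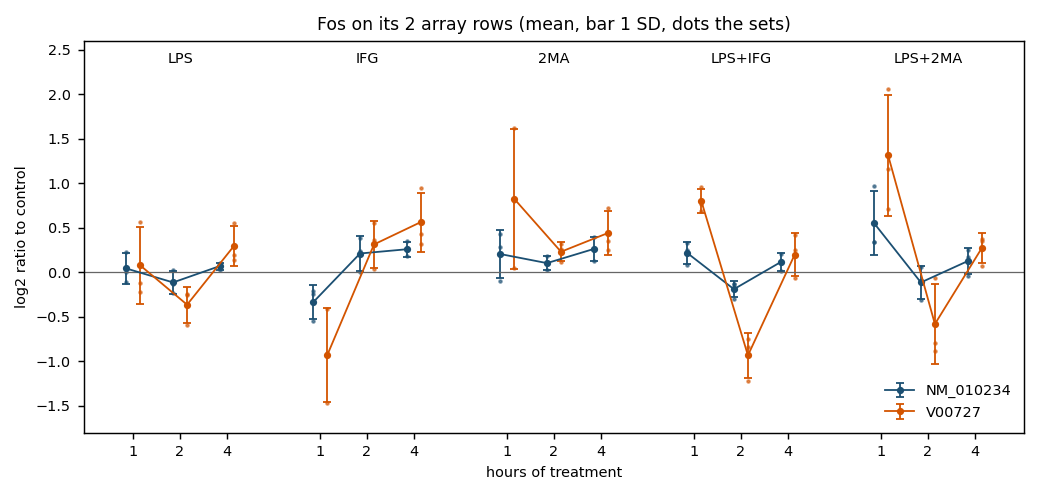
Log2 ratio of Fos (vertical) by hours of treatment (horizontal) on its 2 array rows, with means joined by lines, bars of 1 SD and dots for the 3 sets. V00727 moved farther from 0 than NM_010234 in each of the 15 conditions, most visibly at 1 h.

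Fosl1 (Fra-1), a Fos relative without the transactivation domain of Fos, was called higher in all 9 conditions with LPS. After 1 h of LPS its ratio was 2.22, 1.87 and 2.45 in the 3 sets, a mean of 2.18 ± 0.29 or 4.53-fold (adjusted p = 4.91e-13 by limma). The mean was 1.69 ± 0.46 at 2 h and 1.52 ± 0.12 at 4 h. LPS+IFG gave 1.83 ± 0.34, 1.74 ± 0.07 and 1.32 ± 0.12, and LPS+2MA gave 2.15 ± 0.34, 1.79 ± 0.35 and 1.07 ± 0.14 at 1, 2 and 4 h. Every one of these 54 arrays was above 0. The call after 4 h of LPS+2MA rested on a mean close to 2-fold, and it was 0.97 on the Cy3-treated arrays alone and 0.91 once all arrays had an equal spread.

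Fosl1 was also the member called higher by 2MA. After 2 h its sets were 1.56, 0.81 and 0.95, a mean of 1.11 ± 0.40 or 2.15-fold (adjusted p = 2.72e-05). Without set 1 the mean was 0.88, short of 2-fold, and a fit to these 3 sets alone gave an adjusted p of 0.0531. The call was also lost on the Cy3-treated arrays (0.91). After 1 h of 2MA it was 0.91 ± 0.28 (1.04 without set 3, which would have been called) and after 4 h 0.45 ± 0.18. IFG gave ratios on both sides of 0. They were -0.44 ± 0.10 at 1 h with all 6 arrays below 0 (adjusted p = 0.399), -0.31 ± 0.30 at 2 h and 0.87 ± 0.38 at 4 h with all 6 arrays above 0 (adjusted p = 7.3e-05), the last short of 2-fold.

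Fosl2 (Fra-2), the other Fra protein, was called higher at 1 h of all treatments with LPS, at 2 h of both combinations and at no other time. LPS at 1 h gave 2.05, 1.77 and 1.27, a mean of 1.70 ± 0.40 or 3.24-fold (adjusted p = 1.21e-06 by limma). At 2 h of LPS the mean was 0.66 ± 0.22 and at 4 h -0.17 ± 0.17. LPS+2MA gave 1.42 ± 0.32, 1.42 ± 0.50 and 0.06 ± 0.36 at 1, 2 and 4 h. LPS+IFG gave 1.39 ± 0.74, 1.11 ± 0.34 and 0.05 ± 0.11, and its sets at 1 h spread from 0.74 to 2.19. Both calls of LPS+IFG were lost without set 1, where the means were 0.99 at 1 h and 0.97 at 2 h. The call at 2 h was also lost on the Cy5-treated arrays (0.93).

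Without LPS Fosl2 was not called. Under IFG its means lay between -0.13 and -0.12 at the 3 times, with the Cy5-treated arrays below 0 and the Cy3-treated ones above 0 on average. After 2 h of 2MA the sets were 1.94, 0.28 and 0.56 (mean 0.93 ± 0.88, adjusted p = 0.0286), so the mean rested largely on set 1. It would have been called without set 2 (1.25) or set 3 (1.11), since set 1 was then a larger part of it.

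Jun, the main dimer partner of Fos, was called higher once at 1 h and lower once at 2 h. With LPS+IFG at 1 h it was 1.01, 1.00 and 1.15, a mean of 1.05 ± 0.08 or 2.08-fold (adjusted p = 3.99e-06 by limma), its single call above control. LPS+2MA at 1 h gave 0.76, 0.53 and 1.44 (mean 0.91 ± 0.47, adjusted p = 7.67e-05; 1.10 without set 2, which would have been called), and LPS gave 0.55, 0.22 and 1.03 (mean 0.60 ± 0.41, adjusted p = 0.0132). All 9 sets with LPS at 1 h were above 0.

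At 2 h of LPS all 3 sets of Jun were below 0, at -0.80, -1.06 and -1.20. The mean of -1.02 ± 0.21 was called lower (adjusted p = 5.37e-06 by limma), where 0.371% of all features were called lower, and was number 41 from the lowest of 11600. The means of LPS+2MA (-0.87 ± 0.32, adjusted p = 5.75e-05) and LPS+IFG (-0.52 ± 0.15, adjusted p = 0.0137) at 2 h were below 0 and short of 2-fold. The lower call was lost without set 3 (-0.93). At 4 h the mean of LPS was -0.04 ± 0.52, with set 3 at -0.64 and the others above 0, and that of LPS+2MA was -0.64 ± 0.27. IFG and 2MA left the mean of Jun between -0.14 and 0.06 at every time.

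Jund, usually the most evenly expressed Jun protein, had its highest means at 2 h. After 2 h of LPS+2MA the sets were 2.04, 2.15 and 2.22, a mean of 2.14 ± 0.09 or 4.39-fold (adjusted p = 2.34e-13 by limma). LPS+IFG gave 1.70, 2.58 and 1.77 (mean 2.02 ± 0.49) and LPS 1.39, 1.67 and 1.64 (mean 1.56 ± 0.16) at that time. At 1 h the means were 1.47 ± 0.13, 1.46 ± 0.18 and 1.09 ± 0.09 in the same order. At 4 h LPS+2MA was still called (1.40 ± 0.16), while LPS+IFG (0.91 ± 0.39) and LPS (0.58 ± 0.30) were short of 2-fold. LPS+IFG at 4 h would have been called without set 1 (1.12).

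Jund was the member whose ratio depended most on the dye. It was higher with treated RNA in Cy5 than in Cy3 in 45 of 45 sets, by 0.85 ± 0.41 (SD over sets). On the Cy3-treated arrays its means at 1 h were 0.51 with LPS and 0.92 with LPS+IFG, and the calls of both were lost there, as was that of LPS+2MA at 4 h (0.96). Its calls at 2 h and that of LPS+2MA at 1 h held in either orientation. Without LPS, Jund was at 0.75 ± 0.48 after 2 h of 2MA (adjusted p = 0.0069) and at 0.62 ± 0.35 after 4 h of IFG (adjusted p = 0.00563), and neither reached 2-fold.

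In the other members the 2 orientations differed by -0.75 ± 0.32 (Batf, 43 sets), -0.71 ± 0.42 (Jun), -0.51 ± 0.42 (Fosl2), -0.37 ± 0.28 (Atf3), 0.34 ± 0.21 (Fosl1) and 0.01 ± 0.17 (Fos), Cy5 less Cy3. The mean over both arrays of a set, used for every value here, holds both orientations equally. For Batf the Cy5 mean was below 0 and the Cy3 mean above 0 in all 15 conditions. The same held for Jun in the 6 conditions without LPS and at 4 h of LPS and of LPS+IFG. For Fosl2 it held at 1, 2 and 4 h of IFG and at 4 h of 2MA, LPS+IFG and LPS+2MA. For Jund the Cy5 mean was above 0 and the Cy3 mean below 0 at 1 and 2 h of IFG and at 1 h of 2MA. On the Cy5-treated arrays the call of Jun at 1 h of LPS+IFG was lost (0.86), and on the Cy3-treated ones its lower call at 2 h of LPS was lost (-0.63, adjusted p = 0.0501).

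Junb, a Jun protein known as an early response gene of macrophages, had a value on 25 of 90 arrays and an exact 0, read as missing, on the other 65. Of the 54 arrays with LPS 1 had a value (1.74, at 2 h of LPS), against 24 of the 36 arrays without it. All 25 values were above 0. It was the sole row of 16281 with a value on at least as many arrays without LPS and no more arrays with LPS, a description whose limits Junb itself set. The sources used here do not say what an exact 0 records, so no Junb ratio can be given for LPS at 1 or 4 h or for either combination at any time.

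Where both arrays of a set held a value, Junb was at 0.28, 0.29 and 0.12 after 1 h of IFG and at 0.71 and 0.60 in 2 sets after 2 h of IFG. After 4 h of IFG the 2 arrays with a value read 1.06 and 1.30. For 2MA at 1 h 2 sets had 1.41 and 0.67, after 2 h 1 set had 0.70 and after 4 h 1 set had 0.44. The arrays with a value grew fewer from 1 to 4 h of IFG (6, 5 and 2) while their ratios lay higher. With no filter on missing values, the mean of 1.04 after 1 h of 2MA would have been called, from 2 sets.

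**Figure D3:**
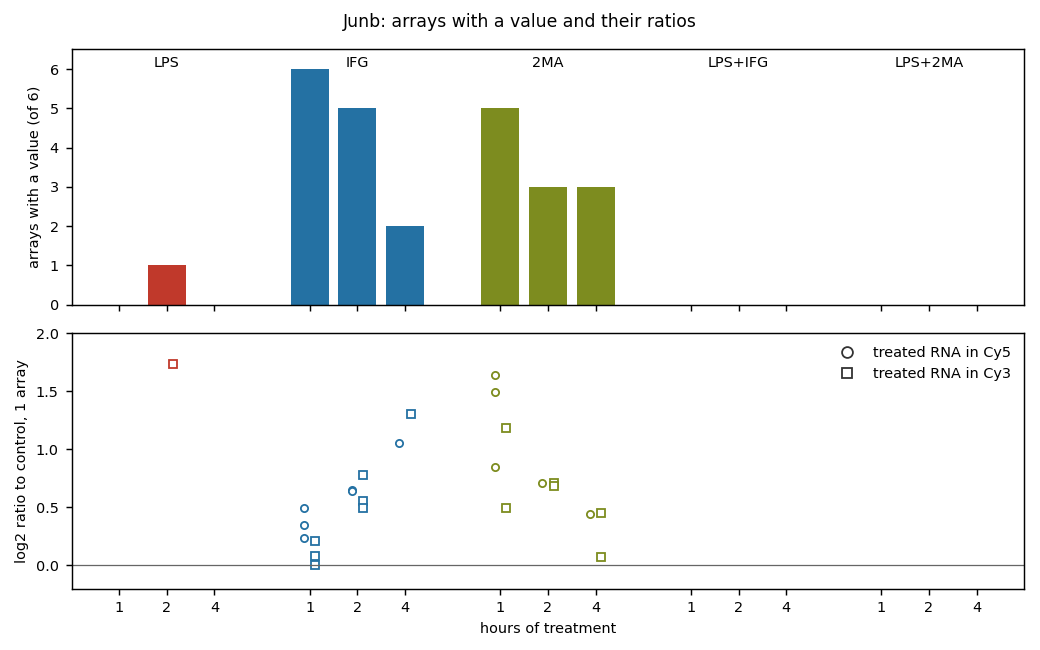
Number of arrays of 6 with a Junb value (top) and the log2 ratio of each such array (bottom) by hours of treatment, with circles for treated RNA in Cy5 and squares for Cy3. Values were present under IFG and 2MA, on 1 array under LPS and on none under the combinations, and all 25 lay above 0.

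Atf3, the stress-induced ATF factor that can dimerize with Jun proteins, had the highest ratio of the members and was called in all 9 conditions with LPS. Its sets at 1 h of LPS+IFG were 3.20, 2.80 and 3.18, a mean of 3.06 ± 0.22 or 8.35-fold (adjusted p = 2.07e-18 by limma), number 25 from the highest of 11600. LPS+2MA gave 2.56 ± 0.18, 2.22 ± 0.32 and 2.31 ± 0.17 at 1, 2 and 4 h. LPS gave 1.80 ± 0.31, 1.59 ± 0.43 and 2.09 ± 0.23, so that its mean at 4 h was not lower than at 1 h. The means of LPS+IFG at 2 and 4 h were 2.48 ± 0.15 and 2.22 ± 0.18.

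Atf3 was also the member called higher by IFG. After 2 h it was 1.13, 1.27 and 1.23, a mean of 1.21 ± 0.07 or 2.32-fold (adjusted p = 8.61e-08). The means at 1 h (0.86 ± 0.27, adjusted p = 1.64e-04) and 4 h (0.88 ± 0.18, adjusted p = 1.99e-05) had all 6 arrays above 0 and were short of 2-fold, the first reaching 1.02 without set 3. Under 2MA the means were 0.59 ± 0.47, 0.31 ± 0.19 and 0.38 ± 0.26 at 1, 2 and 4 h, and the first had an adjusted p of 0.0303.

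Batf, the partner of Jun and of interferon regulatory factors in lymphocytes, was not called in any condition. Its means ran from -0.22 ± 0.12 after 1 h of IFG to 0.21 ± 0.27 after 1 h of LPS+2MA, and every neighbour in that order lay within the larger SD of the next. It had 2 sets instead of 3 at 1 h of LPS and at 2 h of LPS+IFG. A p above the threshold does not show that Batf was unchanged.

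Ordered by mean, the conditions of Atf3 fell into those with LPS (3.06 to 1.59), then IFG (1.21 to 0.86), then 2MA (0.59 to 0.31), and 12 of the 14 neighbouring pairs differed by no more than the larger SD. The exceptions were LPS+IFG at 1 h above the next and IFG at 2 h above IFG at 4 h. Fosl1 ran from LPS at 1 h (2.18) to IFG at 1 h (-0.44), with 2MA at 2 h (1.11) between LPS+IFG at 4 h and LPS+2MA at 4 h, and 11 of 14 neighbours lay within the larger SD. For Jun the conditions at 1 h of the 3 treatments with LPS stood at the upper end. Those at 2 h of the same treatments and LPS+2MA at 4 h stood at the lower end. For Jund the 3 treatments with LPS at 2 h were the highest. For Jun and for Jund 12 of 14 neighbours lay within the larger SD, and for Fos and for Fosl2 13 did.

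Over the 15 condition means, as a description, Fosl1 and Jund (r = 0.787), Fosl1 and Fosl2 (0.749) and Jund and Atf3 (0.706) varied most alike of the 21 pairs of members, and Fos and Jun had r = 0.655. Jun and Batf had the lowest value (-0.311). Since the labels leave unsaid whether conditions shared untreated RNA, these values carry no test.

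A combination was called apart from LPS for 1 member, Atf3. The labels give lipid binding protein with LPS alone and not with the combinations, so an effect of the added agent and one of that protein cannot be told apart here or in the comparison with the sum. At 1 h Atf3 was 1.26 higher with LPS+IFG than with LPS (95% interval 0.84 to 1.68, adjusted p = 1.12e-04 by limma), with the 3 sets of either group apart. Of all features 0.655% were called in that comparison in either direction. At 2 h the difference was 0.88 (0.47 to 1.30, adjusted p = 0.00957), short of 2-fold (1.09 without set 1 of LPS, which would have been called), and at 4 h it was 0.13 (-0.28 to 0.55). With every array given the same spread, the difference at 1 h was 0.88 and lost its call (adjusted p = 0.573).

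Beyond Atf3 at 1 h, no member was called between a combination and LPS at 1, 2 or 4 h of LPS+IFG (0.655%, 0.94% and 1.03% of all features called) or of LPS+2MA (0.069%, 0.0259% and 0.112%). Over these 42 member differences limma gave 12 above and 1 below 0 at an unadjusted p under 0.05. The share of all features at that threshold is not given, so these counts describe the members only. The widest difference with 2MA was that of Fos at 1 h, 0.87 higher with LPS+2MA (0.46 to 1.28, adjusted p = 0.112), where the sets of the groups did not overlap. Without set 1 of LPS+2MA it was 1.07 and called. Jund at 4 h was 0.82 higher (0.37 to 1.28, adjusted p = 0.133) and Fosl2 at 2 h 0.76 higher (0.10 to 1.42, adjusted p = 0.99). Atf3 with LPS+2MA was 0.75 higher at 1 h (0.34 to 1.17, adjusted p = 0.382), with the sets apart. At 2 h Atf3 was 0.63 higher (adjusted p = 0.572), with overlapping sets. The intervals of Fosl1 at 1 h ran from -0.80 to 0.10 for LPS+IFG and from -0.47 to 0.42 for LPS+2MA, so a 2-fold difference lay outside both. Same-numbered sets deviated together in these comparisons, and with the set as a replicate block the count stayed at 1 higher and 0 lower.

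**Figure D4:**
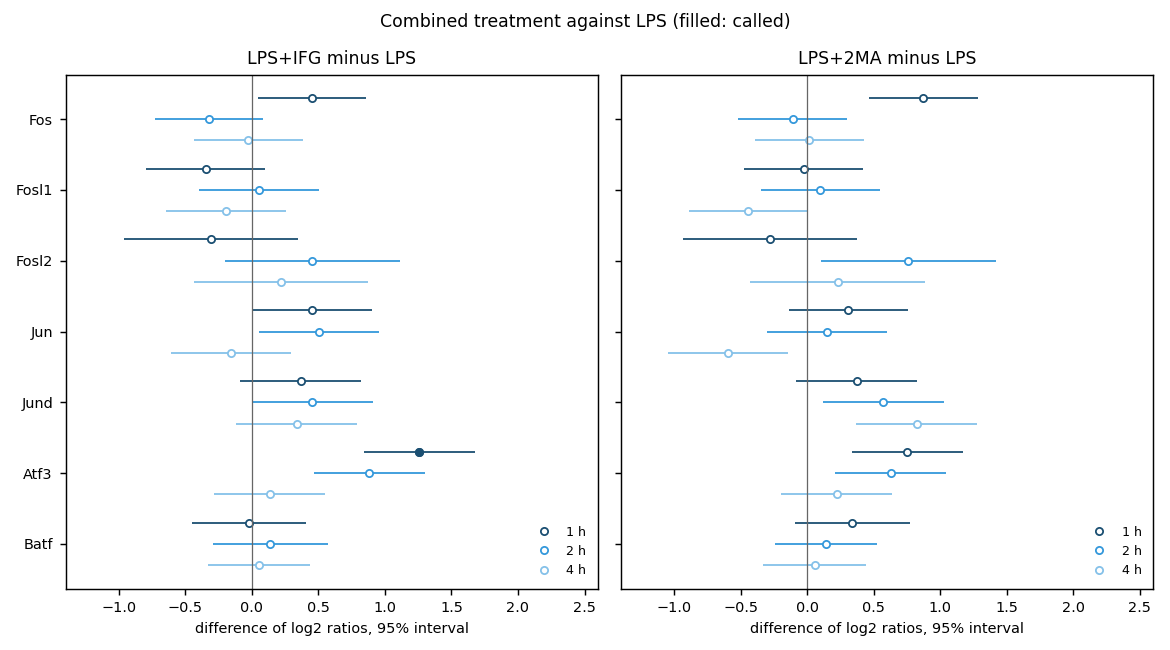
Difference in log2 ratio between a combined treatment and LPS at the same time (horizontal, with 95% intervals) for each member, with LPS+IFG on the left and LPS+2MA on the right. Filled points were called. Atf3 at 1 h of LPS+IFG (1.26) was called, and Fos at 1 h of LPS+2MA (0.87) had the widest difference of the right panel without a call.

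Each combination was also compared with the sum of the log2 ratios of its single treatments. For Fosl1 at 4 h LPS+IFG was 1.32 against a sum of 2.39, a difference of -1.06 (-1.61 to -0.52, adjusted p = 0.0191 by limma), the sole call of a member in these 6 comparisons. It was lost without set 1 of LPS (-0.997), set 3 of IFG (-0.85) or set 1 of LPS+IFG (-1.01) and on the Cy3-treated arrays (-0.81), and with every array given the same spread its adjusted p was 0.542. Without set 2 of every group it was -1.28 (adjusted p = 0.0509). The features called, in either direction, were 0.0862%, 0.302% and 1.38% of all for LPS+IFG at 1, 2 and 4 h and 0.00862%, 0.00862% and 0.0517% for LPS+2MA. Fosl1 was also below the sum in LPS+2MA, the difference being -0.93, -1.01 and -0.89 at the 3 times, without a call. In the fit of all 90 arrays with a dye term that at 2 h was called (adjusted p = 0.00786). The 2 arrays of a set entered this fit as separate values, with 1 correlation of 0.271 within sets for all features. For a gene whose arrays of a set agree more closely than that, the p-values of this fit would be too small.

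For Atf3 the ratio after 1 h of LPS+IFG exceeded the sum by 0.40 (-0.11 to 0.91, adjusted p = 1), and after 4 h it was 0.75 below it (adjusted p = 0.135). Fos at 1 h of LPS+IFG was 0.51 against a sum of -0.57, a difference of 1.08 (0.58 to 1.59, adjusted p = 0.101). It would have been called without set 3 of LPS (1.25) or set 2 of IFG (1.25). In the fit of all 90 arrays with a dye term its adjusted p was 1.63e-04. That fit counts the arrays of a set as separate values, with the limit given above.

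The members differed in their course from 1 to 4 h. Fosl2 was 1.87 lower at 4 h than at 1 h of LPS (95% interval -2.52 to -1.21, adjusted p = 4.48e-05 by limma), 1.34 lower with LPS+IFG (adjusted p = 0.00207) and 1.36 lower with LPS+2MA (adjusted p = 0.00186). Jun was 1.26 lower with LPS+IFG (-1.71 to -0.81, adjusted p = 4.25e-05) and 1.55 lower with LPS+2MA (-2.00 to -1.10, adjusted p = 1.31e-06). Fosl1 was 1.08 lower with LPS+2MA (-1.53 to -0.63, adjusted p = 3.3e-04). In all these cases the sets of 1 h lay above those of 4 h.

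The calls of 2 of them depended on 1 set. That of Fosl2 with LPS+IFG was lost without set 1 at 1 h (-0.94), and that of Fosl1 with LPS+2MA without set 1 (-0.98) or set 3 (-0.98) at 1 h. Over all features, 3.68%, 4.77% and 5.13% were called between 4 and 1 h of LPS, LPS+IFG and LPS+2MA, against 1, 2 and 3 of the 7 members, all lower at 4 h. Atf3 did not follow them with LPS, where it was 0.29 higher at 4 h (-0.13 to 0.70, adjusted p = 0.474), and was 0.84 lower with LPS+IFG (adjusted p = 0.00245), short of 2-fold. Jund with LPS+2MA differed by -0.07 (-0.52 to 0.39).

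With IFG 2 of the 7 members were called between 4 and 1 h, both higher at 4 h. Fosl1 was 1.31 higher at 4 h than at 1 h (0.86 to 1.76, adjusted p = 1.02e-04 by limma) and Fos 1.04 higher (0.63 to 1.45, adjusted p = 6.7e-04), the groups not overlapping, where 1.25% of all features were called. The Fos difference was 1.49 on the row V00727 and 0.59 on NM_010234, so the second row by itself was not called. It was also lost without set 3 at 1 h (0.85) or set 2 at 4 h (0.97). After 2MA no member was called between 4 and 1 h by limma (0.147% of all features), and 1 member had an unadjusted p under 0.05.

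**Figure D5:**
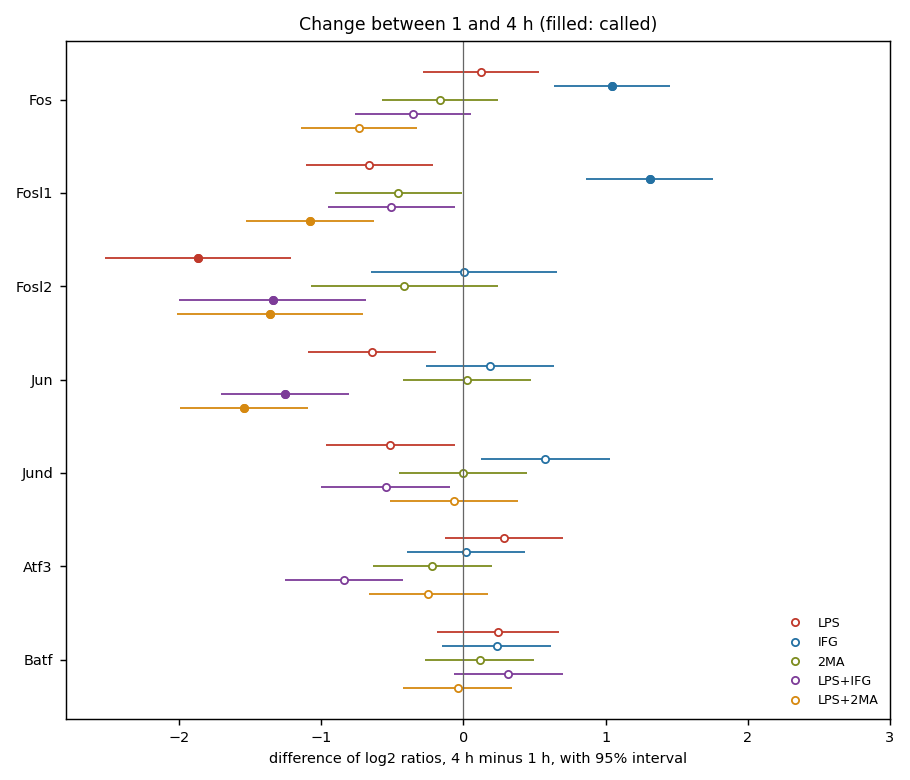
Difference in log2 ratio between 4 and 1 h of a treatment (horizontal, with 95% intervals) for each member, with a colour for each treatment and filled points for calls. The 6 lower calls were in treatments with LPS and the 2 higher calls, of Fosl1 (1.31) and Fos (1.04), under IFG.

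LPS and 2MA were compared at matched times. Atf3 was higher with LPS by 1.21, 1.28 and 1.71 at 1, 2 and 4 h (adjusted p = 2.6e-04, 3.61e-05 and 5.78e-08 by limma), with the sets apart each time. Fosl1 was higher with LPS by 1.27 at 1 h (0.83 to 1.72) and by 1.07 at 4 h (0.62 to 1.52), and by 0.58 at 2 h (0.13 to 1.03, adjusted p = 0.158). The share of all features called was 0.733%, 1.53% and 3.84%, against 2, 1 and 2 of the 7 members. Without set 3 of 2MA the Fosl1 difference at 4 h was 0.97 and not called, and it was 0.75 with every array given the same spread.

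Jun at 2 h was 0.88 lower with LPS than with 2MA (-1.33 to -0.43, adjusted p = 0.0116), short of 2-fold, and -1.01 without set 3 of 2MA. Jund at 2 h was 0.82 higher with LPS (adjusted p = 0.0234), and 1.09 without set 1 of 2MA. Fosl2 at 1 h was 1.13 higher with LPS (0.48 to 1.79) with an adjusted p of 0.0731. Same-numbered sets deviated together here too, and with the set as a replicate block that difference was called (adjusted p = 0.0114), which made 6 calls instead of 5.

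Relatives and regulators of AP-1 were read from lists of gene names. Of 36 other leucine zipper factors 26 were measured and 10 were called in at least 1 of the 15 conditions. The share of all features called in at least 1 condition was not counted. Such counts, for this and the following lists, therefore describe the named genes only. After 2 h of LPS+IFG 8 of the 26 were called higher, against 3% of all features, and none lower. The share of all features called lower there is not given. The list median was 0.26 against 0.00 for all features. The 8 included Batf2, a Batf relative (3.14 ± 0.43), Cebpd, a C/EBP factor of the acute phase (2.98 ± 0.14), Crem, a cyclic AMP response factor (2.65 ± 0.50), and Maff, a small Maf protein (1.71 ± 0.26). At 1 h of LPS 4 were called higher (1.03% of all features), among them Maff (1.74 ± 0.34) and Jdp2 (1.58 ± 0.31), a repressor that dimerizes with Jun. After IFG 1, 2 and 3 of the 26 were called higher at 1, 2 and 4 h (0.353%, 1.06% and 1.69% of all features). None was called after 2MA by limma (0.259%, 0.319% and 0.112% of all features higher). At an unadjusted p under 0.05 there were 8, 2 and 1.

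Among 28 measured of 42 kinases and factors that act on Fos and Jun genes or proteins, 7 were called in some condition. After 4 h of LPS+IFG 2 of the 28 were higher, against 4.58% of all features, and 4 lower, against 2.13%. The count of 2 is near that of all features. They included Map3k8 (Tpl2), a kinase upstream of ERK (2.41 ± 0.27), Elk3, a partner of serum response factor (-1.35 ± 0.34), Mapk14, the p38 kinase (-1.29 ± 0.16), and Map3k5 (-1.10 ± 0.13). At 1 h of LPS and of LPS+2MA none of the 28 was called by limma (1.03% and 1.15% of all features higher). At an unadjusted p under 0.05 there were 5 and 4, and the list medians were 0.02 in both.

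Of 21 modifiers of AP-1 proteins 10 were measured and 5 were called in some condition. With LPS+IFG at 2 h 4 of the 10 were higher, against 3% of all features. They were Irf8 (3.58 ± 0.18) and Irf4 (2.76 ± 0.28), interferon regulatory factors that bind with Batf and Jun proteins, and Dusp1 (2.91 ± 0.41) and Dusp16 (1.13 ± 0.05), phosphatases of the kinases upstream of Jun. Dusp1 was called lower at 2 h of IFG (-1.003 ± 0.21), where 0.0172% of all features were.

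Of 35 genes that AP-1 is known to act on, most of them also controlled by other factors, 27 were measured and 15 were called in some condition. None was called lower. Few of all features were either, with 0.371% at 2 h of LPS, 0.0172% at 2 h of IFG and 2.13% at 4 h of LPS+IFG. The share called lower in the other conditions is not given. In LPS 6, 10 and 11 of the 27 were called higher at 1, 2 and 4 h (1.03%, 1.84% and 3.64% of all features), and in LPS+2MA 8, 11 and 14 (1.15%, 2.22% and 4.69%). After 4 h of LPS+2MA the list median was 1.12, and the highest were Il6 (5.50 ± 0.29), Il1b (5.25 ± 0.40), Ptgs2, the inducible cyclooxygenase (4.38 ± 0.67), and F3, tissue factor (3.88 ± 0.76). LPS+IFG had 7, 9 and 9 called higher (1.69%, 3% and 4.58%). IFG had 0 (1 at an unadjusted p under 0.05 by limma), 2 and 6 (0.353%, 1.06% and 1.69%). With 2MA there were 2, 3 and 1 (0.259%, 0.319% and 0.112%).

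The genes most like each called member over the 15 condition means, among 9753 named genes outside the family, were listed by Pearson's r as a description. For Fosl1 they were the phosphatase Dusp2 (r = 0.941), the repressor Tgif1 (0.936) and Dusp1 (0.936). For Fosl2 they were the clock-linked repressor Bhlhe40 (0.893), the endoplasmic reticulum chaperone Hspa5 (0.892) and the GTPase Rhob (0.878). Jun was matched by Ppp1r10 (0.901), Rnf225 (0.866) and the heat shock cochaperone Dnajb1 (0.86), and Jund by Bcl10 (0.932), Cdk5r1 (0.928) and Noct (0.927). For Atf3 they were Cd83, a marker of activated antigen-presenting cells (0.925), the apoptosis inhibitor Cflar (0.904) and the phosphatase Dusp16 (0.902). Each such set was picked as the highest of many, so the values carry no test.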

How the data were processed

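Total RNA of treated and time-matched untreated RAW 264.7 cells was compared on 90 arrays with 2 colours. The values the authors deposited were read as log2 ratios between channels, because every array has a median of 0 and 14 values lie within 1e-09 of the log2 of 100 (6.64), with none farther out. The sources used here do not give the authors' scanning, background correction or normalization. Exact zeros (7.84 to 17.0% of an array) were read as missing, and the sign was turned on arrays with treated RNA in Cy3. With Cy5 over Cy3, 7 of 7 genes known to rise with LPS were above 0 (median 2.90). They were Tnf, Il1b, Nfkbia, Ccl4, Tnfaip3, Nfkbiz and Dusp1, so that these genes were higher with LPS is not a separate result. Probes were named through the platform annotation (13738 of 16281 with 1 symbol).

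Each replicate averaged the dye-exchanged arrays of 1 set. A probe stayed where every condition had 2 or more replicates measured (13711), and probes were averaged per gene to 11600 features, 1.05% of whose replicate values were missing. Precision is limited by the few arrays, and the median residual SD was 0.199. Condition means were fitted to all 45 replicates with limma 3.58.1 in R 4.3.3 (prior 5.82 degrees of freedom, prior SD 0.185), with two-sided p-values adjusted by Benjamini and Hochberg within each of 35 comparisons. Python 3.11.15, pandas 2.3.3, matplotlib 3.10.9 and NumPy 2.4.6 made the tables and figures.

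At a given time, same-numbered sets of different treatments deviated together in 86 of 90 cases (r over features above 0.1, median 0.433), in 18 of 18 pairs of LPS with a combination and in all pairs of LPS with 2MA, and in 7 of 15 pairs of 4 h with 1 h. The fit was tested on simulated data for the 11600 features: of 50 features changed by 1.5 on the log2 scale, 50 passed the adjusted p for 1 h of LPS and 49 for LPS+IFG less the sum at 1 h. Of 50 changed by 1, the size of the threshold, 49 and 35 passed it, and 24 and 20 were called at 2-fold. Among unchanged features 6 and 8 passed the adjusted p. The simulated noise was independent for each replicate, so it leaves out the shared deviation of same-numbered sets.

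The alternatives tried were the minimum fold, equal spread of arrays, each dye alone, complete values, no filter, zeros kept, the set as a block, a dye term, a fit of the compared groups alone, single probes, each replicate left out, and set 2 left out (added after seeing the data). The members, gene lists and tests were chosen with earlier results of these data known. All measured members were named. From each further list up to 4 called genes with the largest ratio at the time with most calls were named, and for each called member the 3 other genes most like it over 15 condition means. Genes outside this rule (Maff and Jdp2 at 1 h of LPS, Dusp1 at 2 h of IFG, and the markers Fcgr1 and Csf1r) were chosen after their values were seen.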

Additional observations from a re-analysis of the deposited data

Results flagged for a closer look

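The response at 4 h differed from that at 1 h by limma's test of the difference itself in 8 cases. Under treatments with LPS the difference in log2 ratio was -1.87 for Fosl2 with LPS, -1.34 for Fosl2 and -1.26 for Jun with LPS+IFG, and -1.36 for Fosl2, -1.55 for Jun and -1.08 for Fosl1 with LPS+2MA. Under IFG it was 1.31 for Fosl1 and 1.04 for Fos. Groups of 3 sets were too small for a search for outlying samples.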

How the results depend on the processing

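No called value of a member changed sign under any alternative. Against control, 33 higher calls, more with no minimum fold as given above, became 32 to 35 when a replicate was left out. The 1 lower call became 0 to 1 so, 6 with no minimum fold, 4 on Cy5-treated arrays and 0 on Cy3-treated ones. Between combinations and LPS, 1 higher call became 1 to 2 without a replicate, 2 with no minimum fold and 0 with arrays given the same spread. From 1 to 4 h, 2 higher calls became 1 on Cy5 arrays and 1 with each probe on its own, and ranged from 1 to 2 without a replicate, while 6 lower calls became 10 with no minimum fold and ranged from 5 to 6. Sets of 4 and 1 h shared only a number, and the replicate block left these at 2 and 6.

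For the combinations less the sum, 0 higher calls became 1 with the dye term, whose limit is given above, and 0 to 1 without a replicate. The 1 lower call became 0 with scaled arrays, 0 on Cy3 arrays, 2 with that term, 0 without set 2 of every group and 0 to 1 without a replicate. For LPS against 2MA, 5 higher calls ranged from 4 to 6 without a replicate and were 6 with the replicate block. The 0 lower calls became 1 with no minimum fold and 0 to 1 without a replicate. Leaving out set 2 of every group was added after seeing the data, and it kept 48 of 49 calls of members over all comparisons. With the set as a replicate block the paired comparisons changed in 1 call, that of Fosl2 between LPS and 2MA at 1 h. The cause of these changes was not tested. Complete values only, no filter and exact zeros kept as 0 changed no call of a tested member, although Batf dropped out of the first. Signal over background is unknown here, so how reliable small ratios are cannot be given.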
